A study of Schizosaccharomyces pombe with 261 samples.

Results

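The genes described here are 21 fission yeast (Schizosaccharomyces pombe) genes whose mRNA was at about its starting level after 5 min at 37.5 °C and at least 3 times higher after 25 min. They were chosen among the 5478 identifiers without the prefix SPNCRNA, which marks noncoding RNAs, of 7015 counted in all. Ribosomal RNA genes lack this prefix and were not removed by it. A member had a mean of at least 10 counts per 1000000 counts (CPM) at 25 min and at least 3 times the 0 min mean, while its 5 min mean was 0.7 to 1.4 times the 0 min mean, in the wild-type libraries of a first series, RNA1. Genes within 100 kb of the ends of chromosomes I and II were left out. The members were thus selected on the RNA1 levels at 0, 5 and 25 min, which are given as a description, with no test.

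All mRNA libraries came from h+ cells with the alleles ade6-DN/N and leu1-32, also carrying ura4-DS/E and the insertions imr1L::ura4+ as well as otr1R::ade6+. They were grown in YES medium at 30 °C to mid-log phase and then moved to a 37.5 °C water bath. Series RNA3 held atf1Δ cells (atf1 replaced by KanMX6) and pcr1Δ cells (pcr1 replaced by KanMX6), each at 5 and 0 min, and clr4Δ cells (clr4 replaced by NatMX6) at 0, 2.5 and 5 min. Series RNA1 held wild-type (WT) cells at 0, 5 and 25 min, and series RNA2 held WT cells at 0, 2.5 and 5 min. Each of these 13 groups had 3 libraries. The labels do not say whether the 3 libraries of a group were separate cultures, so p-values measure the spread between these libraries. Series RNA3 had no WT libraries, so a difference between a deletion strain and WT cannot be told apart from a difference between series. No deletion strain and no series other than RNA1 was sampled at 25 min.

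In fission yeast, heat activates the mitogen-activated protein kinase Sty1, which acts through the bZIP transcription factor Atf1 and its partner Pcr1. This pair binds promoters at CRE sites. Heat shock factor, which binds heat shock elements, drives the chaperone genes. Clr4 methylates histone H3 at lysine 9, the modification found in heterochromatin. The best known heat genes respond within minutes. Enzyme genes of carbon, nucleotide and nitrogen use also respond to stress and to starvation in this yeast.

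Libraries held 6573143 to 12588425 counts in genes. In the libraries labelled atf1Δ, reads of atf1 itself averaged 154 ± 14.4 CPM at 5 min and 133 ± 17.4 CPM at 0 min, against 558 ± 55.3 and 225 ± 17.9 CPM in WT cells of RNA2 and 652 ± 20.9 and 138 ± 24.2 CPM in WT cells of RNA1 (SD, n = 3 each). Before heat, atf1 in these libraries thus overlapped WT cells of RNA1, and at 5 min it was below both WT series. In the libraries labelled pcr1Δ, pcr1 stood at 50.4 ± 3.80 CPM at 5 min and 43.0 ± 4.22 CPM at 0 min, against 283 ± 32.7 and 76.0 ± 17.99 CPM in WT cells of RNA2 and 329 ± 31.4 and 67.7 ± 13.1 CPM in WT cells of RNA1. In the unheated libraries labelled clr4Δ, clr4 averaged 177 ± 3.89 CPM, against 46.1 ± 2.44 CPM in unheated WT cells of RNA2 and 53.8 ± 5.55 CPM in those of RNA1. The deleted genes thus kept counts in all 3 deletion strains, so the counts before heat do not check the label atf1Δ. For clr4, which was higher, the counts go against the label clr4Δ or come from outside the deleted part, which is not given in the sources used here. The libraries are called by their labels below, and every direction drawn from those labelled clr4Δ rests on the label. Of the mating-type markers, the P-cell genes map2 and map3 had 2.86 to 8.97 CPM and 6.80 to 187 CPM over the 39 libraries, and the M-cell pheromone gene mfm1 had 0 to 1.16 CPM. Of the other M-cell genes listed, mfm2, mfm3 and mam2 had up to 8.11, 2.62 and 6.62 CPM, but mam1, the transporter of M-factor, had 27.2 to 87.4 CPM.

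Stretches of 250 bases before the annotated start are shown for 5 members, because they carry the results below. They are SPBC3H7.08c, urg3, uck2, pnc1 and adh8. SPBC3H7.08c had the largest ratio, and urg3 and uck2 are neighbours. The nicotinamidase gene pnc1 held the most kinds of motif linked to stress factors, and adh8 was lower at 5 min in WT cells of RNA2. Sequence and starts are from RefSeq, build ASM294v3, read 5′ to 3′ on the gene's strand. For uck2 and adh8 the annotated start is the first coding base, so their stretches may hold transcribed bases. In the files' build ASM294v2, pnc1 is counted over chrII:2494114-2497857 and adh8 over chrII:293225-294725. Most of both stretches, with all their marked motifs, lies inside these spans, so the pnc1 stretch may hold transcribed bases too. Capitals mark matches to the motifs searched, which are named under the promoters below.
SPBC3H7.08c, chrII:1868696-1868945, plus strand: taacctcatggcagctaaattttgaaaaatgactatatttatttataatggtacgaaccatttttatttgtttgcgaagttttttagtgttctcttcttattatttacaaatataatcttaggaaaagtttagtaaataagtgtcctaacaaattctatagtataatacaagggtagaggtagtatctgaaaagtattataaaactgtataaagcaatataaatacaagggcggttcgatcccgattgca
urg3, chrI:1831855-1832104, plus strand: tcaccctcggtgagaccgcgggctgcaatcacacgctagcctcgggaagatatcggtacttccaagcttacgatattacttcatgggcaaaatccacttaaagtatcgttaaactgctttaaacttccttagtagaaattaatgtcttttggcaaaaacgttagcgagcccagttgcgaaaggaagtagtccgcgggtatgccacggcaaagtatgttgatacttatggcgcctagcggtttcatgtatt
uck2, chrI:1840371-1840620, plus strand: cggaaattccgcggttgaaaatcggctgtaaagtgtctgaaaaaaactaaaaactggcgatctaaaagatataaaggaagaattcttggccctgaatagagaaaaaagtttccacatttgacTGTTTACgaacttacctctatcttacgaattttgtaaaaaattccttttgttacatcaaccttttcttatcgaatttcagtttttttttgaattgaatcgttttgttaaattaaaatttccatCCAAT
pnc1, chrII:2497638-2497887, minus strand: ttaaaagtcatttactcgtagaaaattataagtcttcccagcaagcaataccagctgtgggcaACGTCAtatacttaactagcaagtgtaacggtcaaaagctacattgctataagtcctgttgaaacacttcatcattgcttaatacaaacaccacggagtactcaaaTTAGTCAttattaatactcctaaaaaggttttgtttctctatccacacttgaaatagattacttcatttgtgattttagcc
adh8, chrII:294507-294756, minus strand: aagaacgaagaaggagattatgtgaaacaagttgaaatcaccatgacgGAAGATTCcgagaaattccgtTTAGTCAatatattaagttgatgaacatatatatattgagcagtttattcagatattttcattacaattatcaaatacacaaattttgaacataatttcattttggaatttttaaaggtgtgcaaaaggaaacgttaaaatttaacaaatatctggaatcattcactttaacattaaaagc

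The members' combined level in RNA1 was 703 to 734 CPM per library at 0 min, 796 to 865 CPM at 5 min and 2805 to 3131 CPM at 25 min. Ratios of the 25 min to the 0 min mean ran from 3.03 for egt1 to 14.6 for SPBC3H7.08c.

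**Figure D1:**
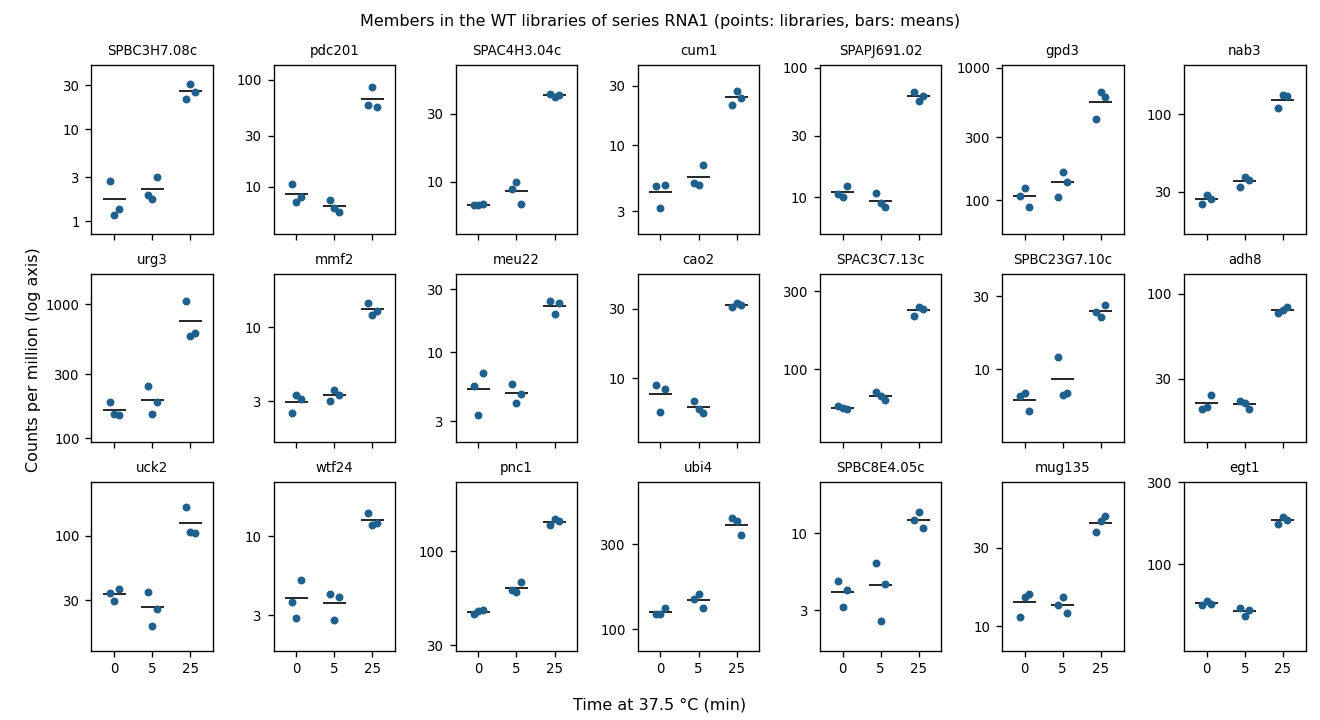
CPM (log axis) of each of the 21 members at 0, 5 and 25 min at 37.5 °C in WT cells of series RNA1; points are libraries (n = 3) and bars are means. The 25 min libraries stand above the others in every panel, which the choice of genes required of the means but not of each library.

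Enzymes of sugar and alcohol metabolism and related redox steps made up 5 members. The pyruvate decarboxylase gene pdc201, whose enzyme turns pyruvate into acetaldehyde, had 10.7, 7.13 and 7.94 CPM at 0 min, 7.45, 6.32 and 5.78 CPM at 5 min, and 58.2, 85.7 and 56.0 CPM at 25 min. The 25 min libraries lay far above both earlier times, which overlapped. The glyceraldehyde 3-phosphate dehydrogenase gene gpd3, a glycolytic gene, had 107, 124 and 88.8 CPM at 0 min, 106, 164 and 138 CPM at 5 min, and 414, 656 and 601 CPM at 25 min. The alcohol dehydrogenase gene adh8 had 19.4, 20.05 and 23.8 CPM at 0 min, 21.9, 21.2 and 19.5 CPM at 5 min, and 75.7, 79.9 and 83.5 CPM at 25 min. SPAC3C7.13c is annotated as a glucose-6-phosphate 1-dehydrogenase, the enzyme that opens the pentose phosphate pathway. Its mean was 58.5 CPM at 0 min, 69.0 CPM at 5 min and 229 CPM at 25 min. SPBC23G7.10c, an NADH-dependent flavin oxidoreductase, averaged 6.28, 8.60 and 24.0 CPM at the same times. The deposited counts tally reads that map to several places apart from the genes, 6.80 to 21.2% of the tallied total per library. Reads that gpd3, pdc201 and adh8 share with related dehydrogenase or decarboxylase genes may thus be missing from their counts.

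Members of nucleotide and NAD metabolism were urg3, uck2 and pnc1. The urg3 gene, at chrI:1832317-1833811 in the files' build ASM294v2, belongs to the uracil-regulated genes. It had 186, 152 and 150 CPM at 0 min, 247, 152 and 185 CPM at 5 min, and 1055, 582 and 608 CPM at 25 min, the highest mean level of all members. Replicate 1 at 25 min was well above the other replicates. The uracil phosphoribosyltransferase gene uck2, at chrI:1840621-1841283, makes the nucleotide UMP from uracil. It had 34.5, 29.3 and 37.0 CPM at 0 min, 35.02, 18.7 and 25.7 CPM at 5 min, and 169, 107 and 105 CPM at 25 min, again with replicate 1 highest. The nicotinamidase gene pnc1, which recovers nicotinamide for NAD synthesis, averaged 46.1, 62.3 and 146 CPM.

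Amino acid and nitrogen metabolism was represented by the amino acid permease gene meu22 (5.30, 4.94 and 22.6 CPM at 0, 5 and 25 min), by mmf2, annotated in isoleucine synthesis (2.97, 3.32 and 13.4 CPM), and by the amine oxidase-like gene cao2 (7.75, 6.28 and 32.0 CPM). The ergothioneine biosynthesis gene egt1, whose product makes a sulfur antioxidant, averaged 59.7, 53.5 and 181 CPM. SPBC8E4.05c, annotated as a fumarate lyase, averaged 4.02, 4.47 and 12.4 CPM.

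Protein turnover and RNA binding were represented by ubi4 and nab3. The ubiquitin gene ubi4 had 121, 121 and 131 CPM at 0 min, 148, 157 and 132 CPM at 5 min, and 418, 402 and 338 CPM at 25 min. The lowest 5 min library lay just above the highest 0 min library. The poly(A)-binding protein gene nab3 averaged 26.8 CPM at 0 min, 35.4 CPM at 5 min and 126 CPM at 25 min.

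The largest ratio belonged to an uncharacterised gene. SPBC3H7.08c, at chrII:1868936-1870314 in ASM294v2, had 2.73, 1.17 and 1.38 CPM at 0 min, 1.93, 1.76 and 3.04 CPM at 5 min, and 21.1, 30.9 and 25.1 CPM at 25 min. SPAC4H3.04c, also uncharacterised, averaged 6.88, 8.60 and 40.3 CPM. The yippee-like gene SPAPJ691.02 averaged 11.03, 9.44 and 60.7 CPM, cum1 averaged 4.25, 5.61 and 24.2 CPM, and mug135 averaged 14.1, 13.5 and 42.7 CPM. The last member, wtf24, is annotated as a pseudogene of the multi-copy wtf family and averaged 3.92, 3.64 and 12.9 CPM. Reads shared with close copies may be missing from its counts.

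Per kilobase of gene at 25 min, urg3 had the highest level (501 CPM per kb), followed by gpd3 (279), uck2 (191) and ubi4 (163). Meu22 was lowest with 5.96 CPM per kb. Of the members, 9 were on chromosome I, 10 on chromosome II and 2 on chromosome III. Of the 5044 tested identifiers without the prefix SPNCRNA, 2287, 1841 and 916 were on these chromosomes. Nearest to a chromosome end were mmf2 (108 kb), SPBC8E4.05c (108 kb), cao2 (111 kb) and, on chromosome III, mug135 (112 kb). The next was wtf24 at 270 kb. Genes nearer the ends of chromosomes I and II had been left out, and grouping near the ends was not tested.

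Genes on both sides of each limit are given as a description. Just inside the limit at 25 min stood SPBC8E4.05c (12.4 CPM) and wtf24 (12.9 CPM), and just outside it gmh1 (9.66 CPM) and akr7 (9.52 CPM). For the ratio of 25 to 0 min, egt1 (3.03) and mug135 (3.04) were inside, against SPACUNK4.20 (2.98) and SPCC70.04c (2.93) outside. For the ratio of 5 to 0 min, SPBC23G7.10c (1.37) and pnc1 (1.35) were inside at the upper side, against htr11 (1.404) and pof13 (1.408). At the lower side pdc201 (0.760) and uck2 (0.788) were inside, against ppk31 (0.671) and pho842 (0.391), the 2 genes outside. By position, mmf2 (108 kb) and SPBC8E4.05c (108 kb) were inside, while pcm2 (79.9 kb) and mel1 (77.9 kb) were left out.

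The flat level at 5 min depended on the scaling of RNA1. On library totals the median gene changed by -0.21 (log2) between 5 and 0 min, whereas TMM scaling, which centres the bulk of genes, moved it to -0.0014. Members with the largest log2 change at 5 min under TMM were SPBC23G7.10c (0.65), pnc1 (0.64) and nab3 (0.61), given as a description. With TMM-scaled values the same limits gave 12 genes, 11 of them among the 21. A level near the start at 5 min is thus a statement per library total.

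Libraries the choice did not use, those of RNA2 and RNA3, were tested for an early change with edgeR's quasi-likelihood F-test and Benjamini-Hochberg adjustment over all 6172 genes. At 2.5 min against 0 min, 0 of 21 members passed in WT cells of RNA2 and 0 of 21 in cells labelled clr4Δ, where 1.73% and 1.57% of all genes did. At an unadjusted p under 0.05 there was 1 member in each, where 615 and 725 of all 6172 genes were under it. The DESeq2 Wald test called 0 members in both.

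At 5 min in WT cells of RNA2, 3 of 21 members passed, 1 higher and 2 lower, where 27.2% of all genes did (14.1% higher and 13% lower). The median log2 change of the members was -0.05. For comparison, 205 genes, called early genes here, met the same limits at 25 min but were over 1.4 times their 0 min level already at 5 min in RNA1. Of these, 169 were higher and 0 lower at 5 min in RNA2, with a median of 0.89. RNA1 chose both groups, so their difference at 5 min was built into the choice, and RNA2 shows the same order in separate libraries.

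The uracil gene uck2 was the 1 member called higher at 5 min without a replicate block; with the block urg3 was called higher as well, and pnc1 in WT cells, as given below. It had 38.5, 48.9 and 41.6 CPM at 5 min, against 29.3, 32.9 and 34.0 CPM at 0 min in WT cells of RNA2 (log2 change 0.53 ± 0.19, SE, adjusted p = 0.0365), with no overlap. In pcr1Δ cells uck2 had 92.9, 68.0 and 71.4 CPM at 5 min, against 47.7, 39.1 and 35.1 CPM at 0 min (1.04 ± 0.18, adjusted p = 3.36e-05). In atf1Δ cells it had 56.9, 59.5 and 51.2 CPM at 5 min, against 42.9, 38.7 and 36.4 CPM at 0 min (0.68 ± 0.18, adjusted p = 0.00443). In cells labelled clr4Δ it had 44.9, 30.4 and 38.8 CPM at 5 min, against 25.6, 24.8 and 27.6 CPM at 0 min (0.63 ± 0.20, adjusted p = 0.0127). All 4 strains thus had every 5 min library above every 0 min library for uck2, while in RNA1 its 5 min mean was below its 0 min mean. The WT call was lost on library totals and without RNA2 0 min replicate 1 or 2 or 5 min replicate 2 or 3, and the clr4Δ call without 0 min replicate 2 or 5 min replicate 1.

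The alcohol dehydrogenase gene adh8 moved the other way. It had 10.3, 9.06 and 8.66 CPM at 5 min, against 13.5, 15.8 and 10.9 CPM at 0 min in WT cells of RNA2, without overlap (log2 change -0.40 ± 0.14, adjusted p = 0.0316). It was also lower at 5 min in atf1Δ cells (-0.49 ± 0.13, adjusted p = 0.00363) and pcr1Δ cells (-0.42 ± 0.13, adjusted p = 0.013). In cells labelled clr4Δ it did not pass (-0.18 ± 0.13, adjusted p = 0.333), and in RNA1 its ratio of 5 to 0 min was 0.989. The WT call was lost with only the groups compared in the fit and without RNA2 0 min replicate 1 or 2 or 5 min replicate 2 or 3, the atf1Δ call without 5 min replicate 3, and the pcr1Δ call without replicate 3 of either time.

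The ubiquitin gene ubi4 differed between the WT series. It had 123, 131 and 103 CPM at 5 min, against 153, 160 and 149 CPM at 0 min in RNA2 (-0.26 ± 0.09, adjusted p = 0.0275), where in RNA1 its 5 min libraries were above those at 0 min. In pcr1Δ cells it had 81.6, 83.1 and 82.6 CPM at 5 min, against 126, 120 and 125 CPM at 0 min (-0.48 ± 0.09, adjusted p = 9.2e-05). In cells labelled clr4Δ it was lower by a narrow call (-0.23 ± 0.09, adjusted p = 0.049) that 9 of 13 alternatives lost. The WT call was lost with only the groups compared in the fit and without any 1 of the RNA2 0 min libraries or 5 min replicate 3. Among the 43 tested genes of a proteasome and ubiquitin list, 30 were higher and 1, ubi4 itself, was lower at 5 min in WT cells of RNA2. Of all genes, 14.1% were higher and 13% lower there. In RNA1, 35 of the 43 genes were higher at 25 min than at 0 min and 1 was lower. Of all genes, 33.9% were higher and 33.5% lower. The 35 include ubi4, which was chosen on these values.

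Other members passed in some of the deletion strains. The pseudogene wtf24 was lower at 5 min in atf1Δ cells (-0.79 ± 0.21, adjusted p = 0.00425) and in cells labelled clr4Δ (-0.72 ± 0.26, adjusted p = 0.0297), on levels of only 1.15 to 5.62 CPM. The clr4Δ call was lost with DESeq2, with only the groups compared in the fit, and without 0 min replicate 2 or 3 or 5 min replicate 3. The glucose-6-phosphate dehydrogenase gene SPAC3C7.13c was lower at 5 min in atf1Δ cells, with 47.4, 39.8 and 40.8 CPM, against 67.0, 60.2 and 60.6 CPM at 0 min (-0.38 ± 0.10, adjusted p = 0.00455). The counts of members passing at 5 min were 4 of 21 in atf1Δ, 3 of 21 in pcr1Δ cells and 3 of 21 in cells labelled clr4Δ, where 29.9%, 27.4% and 30.2% of all genes passed.

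Replicate numbers were taken as pairs within WT cells, cells labelled clr4Δ and pcr1Δ cells. In pcr1Δ cells the pairing was weak. Same-numbered libraries correlated at 0.272, 0.101 and 0.111 there, and differently numbered ones at up to 0.111. The block within each strain was not planned beforehand. With the number within each strain as a replicate block, 5, 5 and 6 members passed at 5 min in these strains. The shares of all genes given above are from the fit without a block, so these counts cannot be set against them. The block added urg3 in all of them, with log2 changes of 0.34 (adjusted p = 0.00207) in WT cells, 0.31 (adjusted p = 0.00514) in cells labelled clr4Δ and 0.48 (adjusted p = 4.16e-05) in pcr1Δ cells. It also added pnc1 in WT cells (0.20), egt1 in clr4Δ (-0.24) and pcr1Δ cells (-0.25), and SPAC3C7.13c in pcr1Δ cells (-0.24).

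**Figure D2:**
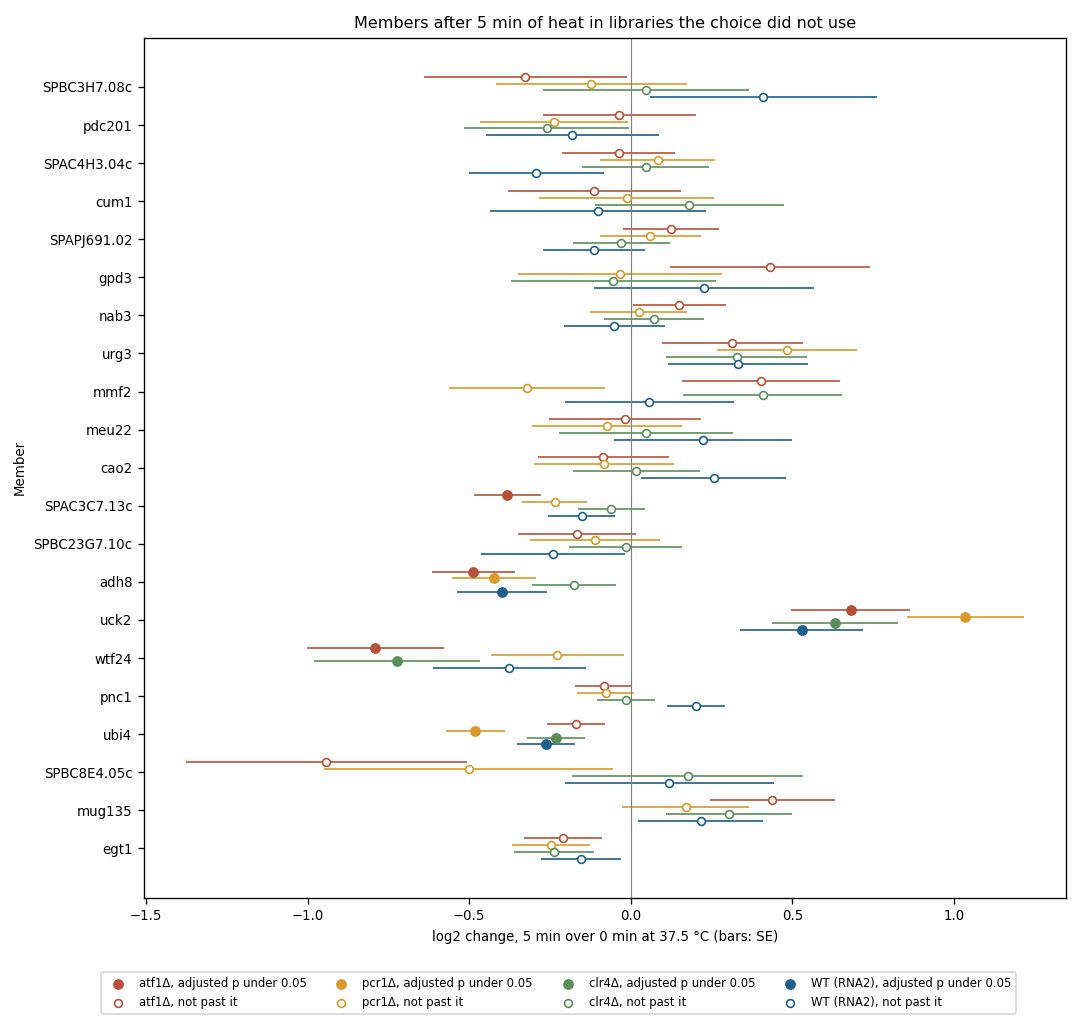
Log2 change at 5 min over 0 min of the 21 members in atf1Δ and pcr1Δ cells and cells labelled clr4Δ of series RNA3 and WT cells of series RNA2, with SE (n = 3 libraries per group); filled points passed an adjusted p of 0.05. In this fit without a replicate block, the filled points to the right of 0 are those of uck2, in all 4 strains.

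Whether the response at 5 min differed between strains was tested as the difference of the log2 changes. None of the 21 members passed for atf1Δ minus WT, pcr1Δ minus WT, atf1Δ minus clr4Δ or pcr1Δ minus clr4Δ, by edgeR or DESeq2, and 1 member had an unadjusted p under 0.05 in each. Of all genes, 2.07%, 2.04%, 2.48% and 2.15% passed, and 526, 433, 829 and 631 of 6172 had an unadjusted p under 0.05. The rise of uck2 was larger in pcr1Δ than in WT cells by 0.51 ± 0.26 (adjusted p = 0.783), so the difference is not established. Of the 205 early genes, 60, 65, 52 and 58 had a lower response in these comparisons, and 0, 0, 1 and 3 a higher one.

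Before heat, several members stood higher in the deletion strains than in WT cells of RNA2. In atf1Δ cells 10 of 21 were higher and 1 lower, where 20.8% of all genes were higher and 21.5% lower. In pcr1Δ cells 7 were higher and 2 lower (17.5% and 19.4% of all genes), and 4 members in cells labelled clr4Δ were higher and 0 lower (2.67% and 1.05%). Of the 205 early genes, 53.7% were higher and 11.7% lower in atf1Δ cells, and 40% and 14.6% in pcr1Δ cells. In cells labelled clr4Δ, 16.1% of the early genes were higher and 0.488% lower. The excess was thus not particular to the members. These comparisons cross series. Within RNA3, atf1Δ against clr4Δ gave 5 higher and 1 lower (23% and 23.1%), and pcr1Δ against clr4Δ gave 3 higher and 6 lower (20.6% and 22.7%). Shared WT and clr4Δ libraries link these comparisons.

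The glycolytic gene gpd3 was the member furthest above WT in unheated atf1Δ cells. It had 110, 138 and 193 CPM in atf1Δ cells and 109, 105 and 117 CPM in cells labelled clr4Δ, against 55.5, 45.8 and 24.8 CPM in WT cells of RNA2 (log2 differences 1.85 ± 0.33, adjusted p = 3.52e-05, and 1.46 ± 0.33, adjusted p = 0.00675). Unheated WT cells of RNA1 had 88.8 to 124 CPM, so the WT series themselves did not overlap. Within RNA3, atf1Δ cells differed from cells labelled clr4Δ by 0.39 ± 0.31 (adjusted p = 0.318). The clr4Δ call was lost without RNA2 0 min replicate 3.

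The flavin oxidoreductase gene SPBC23G7.10c was highest in cells labelled clr4Δ. It had 21.2, 23.0 and 22.3 CPM in unheated cells labelled clr4Δ, against 6.37, 6.20 and 6.06 CPM in WT cells of RNA2 (1.89 ± 0.19, adjusted p = 3.42e-08). In unheated atf1Δ cells it had 13.9, 14.3 and 13.2 CPM, below cells labelled clr4Δ (-0.71 ± 0.18, adjusted p = 0.00142), and in pcr1Δ cells 4.95, 8.39 and 7.09 CPM (-1.71 ± 0.19 against clr4Δ, adjusted p = 8.04e-09). These 3 strains were in 1 series, and their libraries did not overlap. No alternative lost these 3 calls.

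The permease gene meu22 was higher in both bZIP deletions within the series. It had 16.4, 12.99 and 14.4 CPM in atf1Δ and 13.1, 13.2 and 15.2 CPM in pcr1Δ cells, against 7.61, 7.36 and 6.12 CPM in cells labelled clr4Δ (1.02 ± 0.25, adjusted p = 0.00121, and 0.98 ± 0.25, adjusted p = 0.00206). Of 17 tested genes of an amino acid transport list, 4 were higher and 10 lower in each of these comparisons. Of all genes, 23% were higher and 23.1% lower in atf1Δ cells, and 20.6% and 22.7% in pcr1Δ cells. The poly(A)-binding gene nab3 had 46.1, 34.0 and 36.9 CPM in atf1Δ cells, against 23.1, 20.5 and 25.2 CPM in cells labelled clr4Δ (0.73 ± 0.15, adjusted p = 0.000198). In pcr1Δ cells its 23.0, 24.7 and 25.9 CPM overlapped clr4Δ. The uracil gene uck2 was also higher before heat in atf1Δ (0.56 ± 0.19, adjusted p = 0.0167) and pcr1Δ cells (0.64 ± 0.19, adjusted p = 0.0074) than in cells labelled clr4Δ; the atf1Δ call was lost without clr4Δ 0 min replicate 2. Against WT cells of RNA2, uck2 passed in neither strain, with 0.32 ± 0.19 in atf1Δ cells (adjusted p = 0.181) and 0.39 ± 0.19 in pcr1Δ cells (adjusted p = 0.09996). The others higher than in cells labelled clr4Δ were wtf24 in both strains and SPAC4H3.04c in atf1Δ cells.

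The amine oxidase-like gene cao2 and the yippee-like gene SPAPJ691.02 were lower in pcr1Δ than in cells labelled clr4Δ. Cao2 had 4.21, 5.05 and 3.74 CPM in pcr1Δ cells, against 8.86, 9.85 and 7.40 CPM in cells labelled clr4Δ (-1.01 ± 0.21, adjusted p = 0.00018). Against WT cells of RNA2, cao2 differed by 0.03 ± 0.22 in pcr1Δ cells (adjusted p = 0.929) and was higher in cells labelled clr4Δ (1.04 ± 0.21, adjusted p = 0.0024), a call lost with the replicate block and with only the groups compared in the fit. SPAPJ691.02 had 12.05, 9.24 and 9.80 CPM in pcr1Δ cells, against 19.2, 16.8 and 18.8 CPM in cells labelled clr4Δ (-0.82 ± 0.15, adjusted p = 6.36e-05). Against WT cells of RNA2 it passed in neither, with -0.35 ± 0.16 in pcr1Δ cells (adjusted p = 0.0766) and 0.47 ± 0.15 in cells labelled clr4Δ (adjusted p = 0.0792). The fumarate lyase gene SPBC8E4.05c, at very low levels, was lower in pcr1Δ (-1.57 ± 0.36, adjusted p = 0.000894) and atf1Δ cells (-1.06 ± 0.35, adjusted p = 0.0147) than in WT cells of RNA2; the atf1Δ call was lost without RNA2 0 min replicate 1 or atf1Δ 0 min replicate 2. Within RNA3, against cells labelled clr4Δ, it was lower in pcr1Δ cells (-1.04 ± 0.39, adjusted p = 0.0284), a call lost without replicate 2 of either strain, and did not pass in atf1Δ cells (-0.52 ± 0.37, adjusted p = 0.256). Small decreases in pcr1Δ against cells labelled clr4Δ were called for ubi4 (-0.23 ± 0.09, adjusted p = 0.0367) and pnc1 (-0.23 ± 0.09, adjusted p = 0.0326), which 7 and 5 of 12 alternatives lost.

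**Figure D3:**
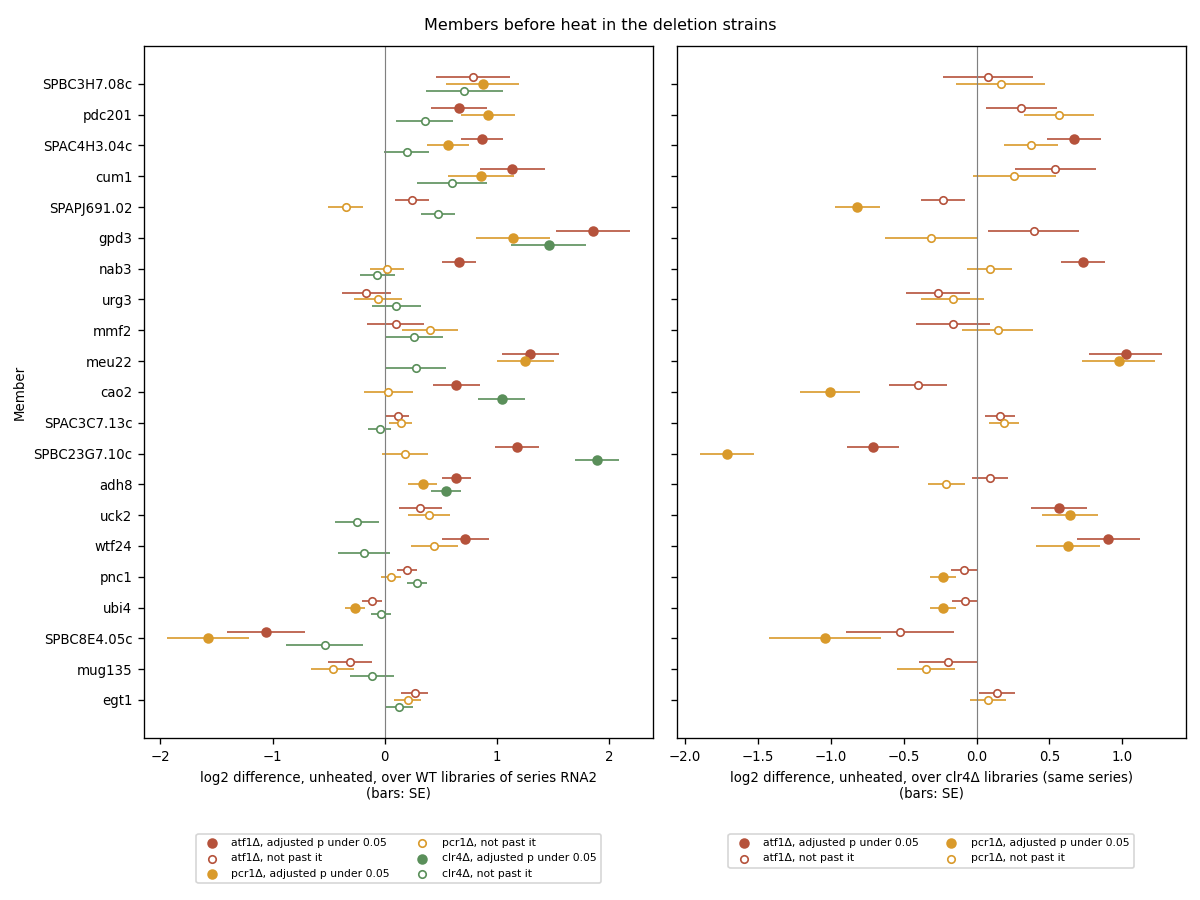
Log2 difference of the 21 members in unheated deletion strains over WT cells of series RNA2 (left) and over cells labelled clr4Δ of the same series RNA3 (right), with SE (n = 3 libraries per group). Filled points passed an adjusted p of 0.05; most filled points on the left lie above 0, while those on the right lie on both sides.

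The members urg3 and uck2 lie on chromosome I with 6809 bases between them, among genes of uracil use. In RNA1 the GTP cyclohydrolase II gene urg1 averaged 137, 215 and 2099 CPM at 0, 5 and 25 min, and urg2, a putative uracil phosphoribosyltransferase, averaged 154, 249 and 1638 CPM. Both were over the 1.4 limit at 5 min and are no members. This rested on 1 library: without RNA1 5 min replicate 1, urg1 and urg2 met the limits and uck2 did not. The next gene, toe1, averaged 37.3, 22.7 and 52.9 CPM, and the uracil transporter gene fur4 averaged 203, 119 and 119 CPM. At 25 min the urg genes and uck2 were thus far above 0 min, while the transporter gene beside them was below it. In WT cells of RNA2, urg2 was higher at 5 min (log2 change 0.85 ± 0.31, adjusted p = 0.0416), and urg3 changed by 0.33 ± 0.22 without the block (adjusted p = 0.288).

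**Figure D4:**
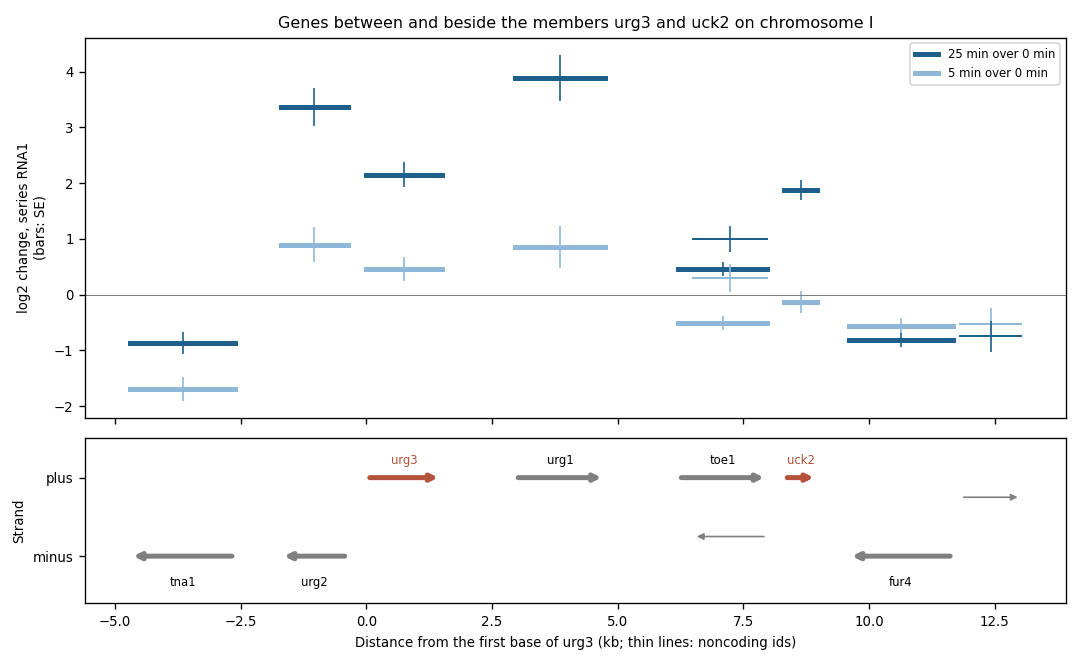
Log2 change at 25 and at 5 min over 0 min in WT cells of RNA1 (top, with SE) and position and strand (bottom) of the genes from tna1 to fur4, as distance in kb from the first base of urg3. The members urg3 and uck2 are in red, and urg1, urg2, urg3 and uck2 all stand above 0 at 25 min.

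The members cao2 and SPBC8E4.05c are neighbours on chromosome II with 1395 bases between them and opposite strands, and both rose late in RNA1. Some members overlap genes on the other strand: 11 of 21 (52.4%), where 58.3% of the tested identifiers without the prefix SPNCRNA do. The sources used here do not say whether counts used strand, so such reads may be mixed, which was not tested. SPNCRNA.1690 lies wholly inside cao2 on the other strand and covers 93.8% of it. It averaged 63.0, 44.6 and 55.5 CPM at 0, 5 and 25 min, against 7.75, 6.28 and 32.0 CPM for cao2. Counts of this pair were thus kept apart at least in part. For mug135, 39.1% is overlapped by SPNCRNA.1109, which averaged 3.62, 9.89 and 63.0 CPM at 0, 5 and 25 min. For cum1 the whole gene lies inside iss1, which averaged 206, 151 and 162 CPM and was not higher at 25 min.

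Promoters of 300 bases, 250 before and 50 after the annotated start, were searched on both strands. Annotated starts and counted gene spans do not always match. The whole windows of ubi4, nab3 and mmf2 lie inside their counted spans, so windows may hold transcribed bases. The CRE core TGACGT was found in 2 of 21 members (9.52%), pnc1 and mug135, against 29.1% of the promoters of the early genes and 5.95% of all 5139 promoters. A heat shock element core, GAANNTTC, was in 4 members (19.0%; mmf2, adh8, pnc1 and wtf24), against 16.3% of the early genes and 11.2% of all promoters. The Pap1-type site TTAGTCA was in 3 members (14.3%; adh8, pnc1 and egt1), against 4.43% and 4.51%. The Ste11-type core TTCTTTG was in 5 members (23.8%), against 8.87% and 9.96%. The forkhead-type core GTAAACA was in 4 members (19.0%), against 14.3% and 16.4%. CCAAT was in 8 members (38.1%), against 39.9% and 42.3%. The GATA core AGATAAG was in 2 members (9.52%), mmf2 and meu22, against 4.43% and 3.97%. The MBF site ACGCGT was in 0 members, against 1.48% and 3.23%. The zinc finger element CCCCTC was in 0 members, against 2.46% and 2.10%.

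In the sequences above, the pnc1 stretch shows a CRE core as ACGTCA on the printed strand and a TTAGTCA site; its heat shock element core lies after the start and is not printed. The adh8 stretch shows GAAGATTC and TTAGTCA. The uck2 stretch shows TGTTTAC, the reverse complement of GTAAACA, and CCAAT at its end. The stretches of urg3 and SPBC3H7.08c hold no match. A match is a description of letters, and no binding was measured here.

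**Figure D5:**
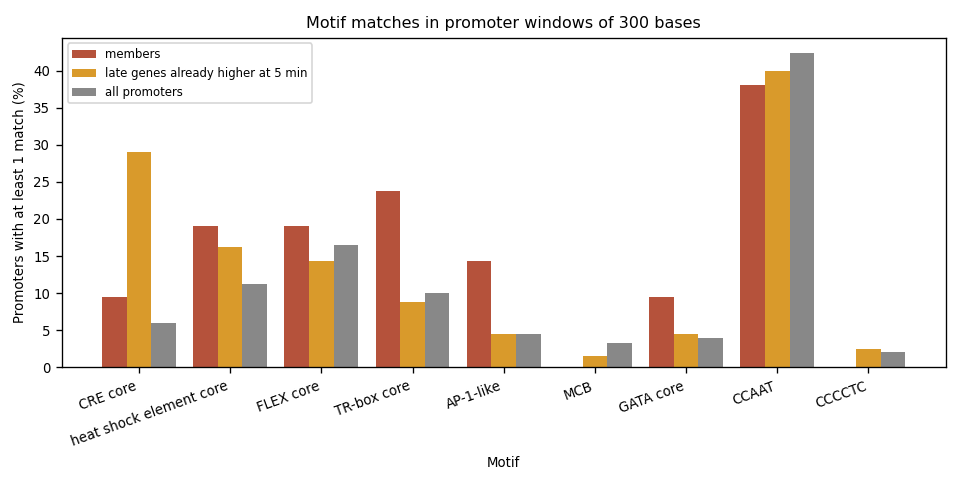
Share of promoter windows of 300 bases with at least 1 match to each motif, for the 21 members, 203 of the 205 early genes, and 5139 promoters in all. The CRE core bar is highest for the early genes (29.1%) and 9.52% for the members.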

How the data were processed

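Counts per gene of 39 mRNA libraries were used as the authors deposited them. The submitters' processing notes name STAR, Bowtie 0.12.9, Trimmomatic 0.33, deepTools, bedtools 2.17.0 and build ASM294v2, with no role for each; strand use in counting is not given in the sources used here. The deposited signal files served for gene positions alone. The ChIP and PRO libraries were not analysed here. CPM are counts divided by the counts in genes of a library.

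edgeR 4.0.16 (R 4.3.3) fitted all 39 libraries with TMM scaling, a filter at a minimum count of 10, one mean per group and an adjusted p under 0.05; all 21 members passed the filter, also without the 25 min libraries. DESeq2 1.42.0 was an alternative.

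The members and lists were chosen with earlier results of these data known. Named genes are the 12 members with the largest ratios, the 8 with the highest levels, members passing a test, and genes beside each limit. Replicate numbers were taken as pairs where same-numbered libraries of a strain deviated together with every correlation over 0.1: from 0.239 to 0.483 in WT RNA2 and 0.296 to 0.347 in clr4Δ cells at 5 min, and 0.101 to 0.272 in pcr1Δ cells, but -0.0754 at the lowest in atf1Δ cells.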

Additional observations from a re-analysis of the deposited data

How the results depend on the processing

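Of 52 calls over 315 pairs of a member and a comparison, 26 held under every alternative run and 0 reversed; 28 pairs without a call gained one somewhere. The number of members was 12 with TMM scaling, 12 with a narrower 5 min range, 11 at 4 times, and 19 to 28 when 1 RNA1 library was left out. Members passing at 5 min in WT cells of RNA2 numbered 3, but 5 with the replicate block, also within each strain, 1 with only the groups compared in the fit, and 0 to 3 with 1 library left out (0 without 0 min replicate 1 or 2 or 5 min replicate 3, and 1 without 5 min replicate 2). In cells labelled clr4Δ the 3 became 5 with either block, 1 with only the groups compared or DESeq2, and 1 to 2 with 1 library left out. In atf1Δ cells the 4 became 8 on library totals, 7 with the block and 8 with the block within each strain (its same-numbered libraries correlate at 0.464, -0.0754 and 0.0114, so the numbers were not taken as pairs), and 3 to 5 with 1 library left out. In pcr1Δ cells the 3 became 6 with either block or only the groups compared, and 2 to 3 with 1 library left out. Shares of all genes are given for the main fit alone, so a higher count in an alternative is no result about the members.

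Unheated against WT cells of RNA2, 9 to 11 members passed in atf1Δ, 4 to 10 in pcr1Δ and 2 to 4 in cells labelled clr4Δ with 1 library left out; clr4Δ gave 2 with only the groups compared. The lowest counts in pcr1Δ cells and in cells labelled clr4Δ came without RNA2 0 min replicate 3. Against cells labelled clr4Δ, 6 to 7 passed in atf1Δ and 5 to 8 in pcr1Δ cells, with 5 without pcr1Δ 0 min replicate 2. The comparisons with 0 members stayed at 0 in every alternative run. The replicate numbers do not pair libraries of different strains, and the cause of these shifts was not tested. Library totals in place of TMM moved the median log2 change of all genes at 5 min to -0.11 in WT cells of RNA2, -0.18 in atf1Δ and -0.11 in pcr1Δ cells.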

Other observations

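Some genes left out only by position or by the 5 min range had a late rise in the same libraries, which the remaining limits required. The genes pcm2 and mel1 met every limit but lie 79.9 and 77.9 kb from the end of chromosome I, and ppk31 and pho842 had 5 min means of 0.671 and 0.391 times the 0 min mean before rising.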
